A study of Mus musculus with 131 samples.

Results

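The liver reads insulin through the insulin receptor, a tyrosine kinase of the plasma membrane that passes the signal through phosphatidylinositol 3-kinase and Akt to enzymes of glycogen and lipid synthesis and to forkhead transcription factors. Methylation of cytosine at CpG dinucleotides is removed during liver maturation by the TET enzymes, which oxidise 5-methylcytosine to 5-hydroxymethylcytosine (5hmC), and such loss is found mostly at enhancers. Here methylation was compared between hepatocytes lacking the insulin receptor (InsR KO) and control hepatocytes, and the same places were read in hepatocytes lacking Tet2 and Tet3 (DKO). The question addressed was whether hepatocytes without insulin signalling acquire the adult methylation pattern after birth.

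The InsR KO mice carried floxed alleles of the insulin receptor gene and received, right after birth, an AAV8 virus in which the hepatocyte-specific Tbg promoter drives the Cre recombinase. The controls were WT mice given the same kind of virus at 1 day and studied at 15 weeks, and the DKO mice carried floxed Tet2 and Tet3, were injected at 1 day and were also studied at 15 weeks. All are C57Bl by their labels, and Cre expression is thus shared by every group compared. Hepatocytes were isolated by liver perfusion and density separation and sorted as CD45-negative cells. Methylation was read by reduced representation bisulfite sequencing (RRBS), in which CpG-rich restriction fragments are sequenced after unmethylated cytosines have been converted. Further groups were used only for reading the same places. They were controls and DKO mice injected at 3 weeks and studied at 15 weeks, and 3 week old WT mice. Cultured hepatocytes labelled 1 week, neutrophils of 36 weeks and fat of 25 weeks were also read. Single whole-genome bisulfite libraries (WGBS) came from newborn (labelled 1 week), adult and DKO hepatocytes (both 15 weeks). RNA libraries of 15 week old controls and DKO mice gave expression, and peaks of WT hepatocytes or liver described the chromatin.

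The deposited RRBS table holds 913286 tiles of 100 bp. The comparison used the 313205 tiles with a value in both InsR KO mice (A and B) and in all 3 controls (A, B and C), with no rule on tissue specificity. A tile was counted as changed where the group means differed by at least 35 percentage points (points) and no InsR KO mouse overlapped a control. The labels list 3 InsR KO samples and 4 such controls, of which 2 and 3 could be tied to columns of the table, and 2 of the 5 DKO samples. Values were present at 374226 and 385147 tiles in the InsR KO mice, against 541018 to 606869 in the controls and 594444 and 611985 in the DKO mice. The labels give neither age nor sex for the InsR KO mice, and the study compared them with WT animals over a range of adult ages. The names of their columns end in M, unlike those of the controls and DKO mice, and what M stands for is not stated. A difference in age or sex therefore cannot be told apart from the deletion. The same holds for batch and processing. The InsR KO samples are listed in a block apart from the other RRBS samples and had values at fewer tiles. The submitters' notes do not name the BSMAP aligner for them. No RNA of InsR KO mice was used here, so loss of the receptor transcript was not checked, and the depth behind each value is known only as a minimum coverage of 10 CpGs a tile.

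Average methylation did not set the groups apart. Over the 313205 tiles the InsR KO mice averaged 54.9% and 55.4% and the controls 54.8% to 55.1%. The difference InsR KO minus controls averaged 0.233 points with a median of 0, 84.2% of tiles lay within 10 points of the controls, and 4.59% differed by more than 20 points. Mice A and B differed more from each other than mice of the other groups injected at 1 day did. The SD over tiles of the difference between the InsR KO mice was 12.1 points, against 9.03 to 9.95 points for the 3 pairs of controls and 8.80 points for the DKO pair.

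The tiles that changed were few and went in both directions. By the rule, 1710 tiles were higher in InsR KO (0.546% of the tiles compared) and 1512 were lower (0.483%). The 3 controls injected at 3 weeks against the 3 injected at 1 day, a comparison between mice with intact receptor and TET genes, gave 99 higher (0.033%) and 68 lower tiles (0.0226%) of 300349. It is not a like background, since it set 3 mice against 3 and InsR KO set 2 against 3, with fewer tiles read. The SD over tiles of the mean difference was 5.82 points there and 9.12 points for InsR KO minus controls. The DKO mice against the controls injected at 3 weeks gave 5208 higher (1.74%) and 229 lower tiles (0.0765%) of 299195, a nearly one-sided pattern that the InsR KO mice did not share. With InsR KO set directly against DKO, 4985 tiles were lower in InsR KO (1.6%) and 484 higher (0.156%) of 311144. Against the controls injected at 3 weeks, InsR KO gave 1363 higher and 1409 lower tiles of 300349.

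**Figure D1:**
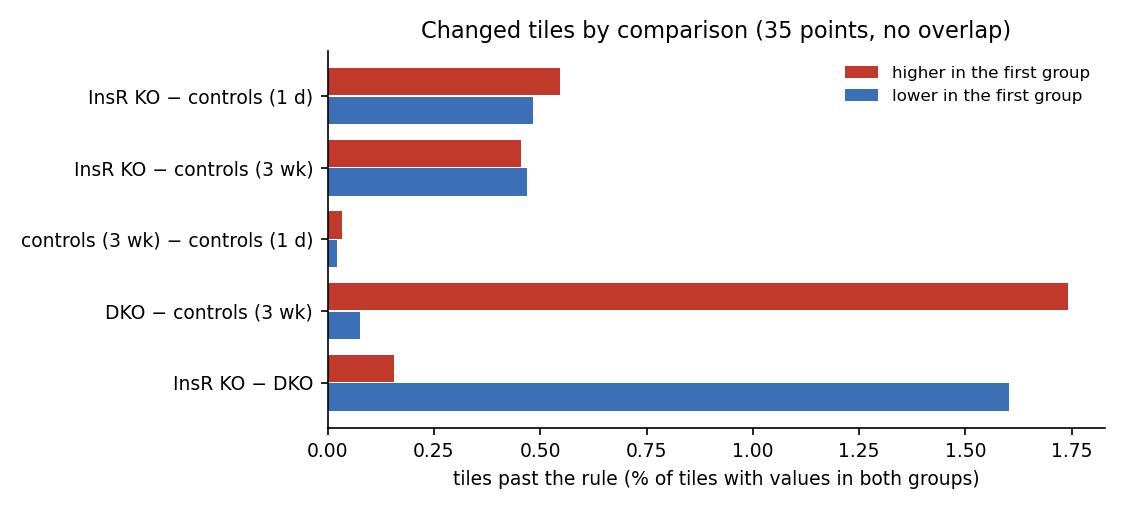
Share of tiles past the rule (mean difference of at least 35 points, no overlap between mice) in 5 comparisons, with red bars for tiles higher in the first group named and blue bars for tiles lower. InsR KO differed from controls at 0.546% and 0.483% of tiles, DKO at 1.74% and 0.0765%, and the controls of both injection times from each other at 0.033% and 0.0226%.

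A linear model over the same tiles (limma, all adult injected groups sharing a spread, Benjamini-Hochberg adjusted p under 0.05 and at least 35 points) called fewer. It gave 340 tiles higher (0.109%) and 849 lower (0.271%) in InsR KO, 3950 higher (1.26%) and 143 lower (0.0457%) in DKO against the shared controls, and 88 higher (0.0281%) and 2900 lower (0.926%) in InsR KO against DKO. These counts rest on the spread borrowed from the other groups. With only the InsR KO mice and their controls in the fit, 1 tile was called higher and 5 lower, although 13409 and 13356 tiles had an unadjusted p under 0.05. Single tiles are thus weakly resolved with 2 mice against 3, and the groups of tiles below are described by their levels in every mouse and in samples that did not choose them.

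The sequences of 4 higher and 2 lower tiles with the widest gap between groups are shown first, because at most of these places the methylation of a tile rests on very few CpGs. They are given on the plus strand of mm9, with the CpGs in capitals, and no deposited value used here gives the bases of the mice themselves. The higher tiles lie in Orm1 (chr4:63007301-63007400, coding exon), Lima1 (chr15:99622701-99622800, intron), Tcf7 (chr11:52070801-52070900, intron) and Zbtb48 (chr4:151399901-151400000, coding exon). The lower tiles lie in Trak2 (chr1:58972601-58972700, coding exon) and in the overlapping genes Cpne1 and Nfs1 (chr2:155903701-155903800, coding exon).
Orm1: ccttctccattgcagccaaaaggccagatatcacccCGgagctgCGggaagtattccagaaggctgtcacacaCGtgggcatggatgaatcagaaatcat
Lima1: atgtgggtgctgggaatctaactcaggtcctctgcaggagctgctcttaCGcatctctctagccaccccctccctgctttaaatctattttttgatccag
Tcf7: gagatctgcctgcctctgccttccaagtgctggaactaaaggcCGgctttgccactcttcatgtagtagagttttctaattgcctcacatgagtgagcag
Zbtb48: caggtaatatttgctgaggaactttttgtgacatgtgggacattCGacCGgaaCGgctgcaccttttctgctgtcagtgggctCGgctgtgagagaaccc
Trak2: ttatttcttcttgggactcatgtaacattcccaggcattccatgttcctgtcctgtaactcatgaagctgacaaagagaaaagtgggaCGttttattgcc
Cpne1 and Nfs1: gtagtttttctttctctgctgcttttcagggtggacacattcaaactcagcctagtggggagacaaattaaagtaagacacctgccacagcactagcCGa

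The 1710 higher tiles stood near the level of immature and of TET-deficient hepatocytes. Their mean methylation was 65.1% and 73.8% in the InsR KO mice and 23.1% to 23.3% in the controls, values that follow from the rule. In samples that the rule did not use, the same tiles averaged 70.6% and 73.2% in DKO, 60.2% and 60.7% in the 3 week old WT mice, 66.7% in the newborn WGBS library, 37.1% in the adult WGBS library and 30.1% to 34.6% in the controls injected at 3 weeks. The last value lay 8.87 points above the controls that chose the tiles. Neutrophils stood at 72.8% and fat at 57.6%, so a high level at these tiles is not restricted to liver samples.

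The DKO mice were also high at most of these tiles. Of the 1585 higher tiles with all values, 929 (58.6%, Wilson 95% interval 56.2 to 61.0%, which covers counting error only) passed the rule as higher in DKO against the controls injected at 3 weeks, against 1.74% of all tiles. These tiles made up 17.8% of all tiles higher in DKO.

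The 1512 lower tiles showed another profile. They averaged 35.4% and 36.3% in the InsR KO mice and 84.1% to 85.4% in the controls. Every other sample read here was high, at 80.1% and 80.6% in DKO, 80.7% to 81.0% in the controls injected at 3 weeks, 79.6% and 79.8% at 3 weeks of age, 77.5% in newborn and adult WGBS and 72.7% in fat. In DKO against the controls injected at 3 weeks 57 of 1384 were lower (4.12%, interval 3.19 to 5.30%), against 0.0765% of all tiles, and they made up 24.9% of all tiles lower in DKO. The loss was thus shared by DKO at few of the lower tiles, yet at a larger share than over all tiles.

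**Figure D2:**
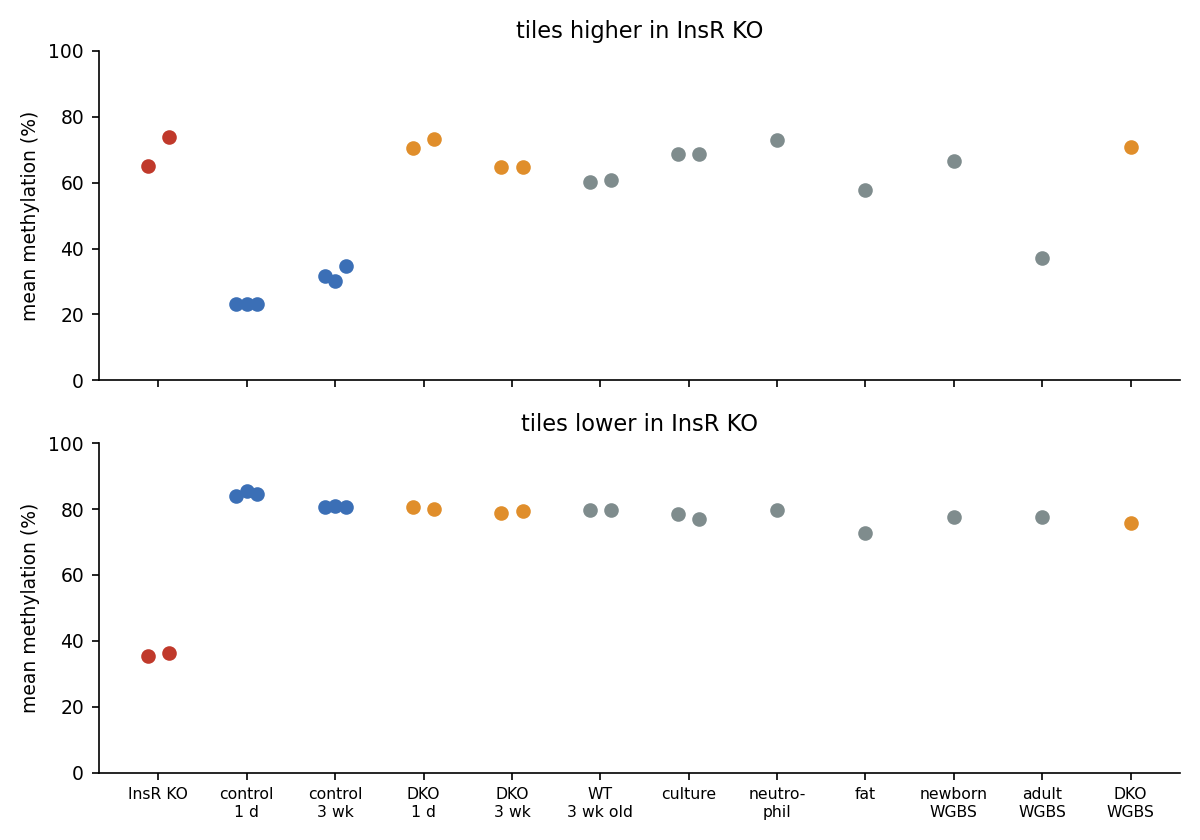
Mean methylation (%) over the 1710 tiles higher (top) and the 1512 tiles lower (bottom) in InsR KO, 1 point for each mouse or library (red InsR KO, blue controls, orange DKO, grey other samples); InsR KO and the controls injected at 1 day chose the tiles. At the higher tiles DKO, newborn and 3 week old samples stood between 60.2% and 73.2%, and at the lower tiles only the InsR KO mice stood under 72.7%.

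The lower tiles also differed in how complete the change was. Among the 93 lower tiles with a difference of at least 75 points, 49 (52.7%) held 1 CpG and 38 (40.9%) read 0% in both InsR KO mice, while the mean of the controls was 91.6%. Among the 993 lower tiles with 35 to 50 points, 14.7% held 1 CpG and 1.71% read 0% in both mice, with an InsR KO mean of 42.1%. Of the 23 higher tiles of at least 75 points, 3 held 1 CpG, 5 read 0% in all 3 controls and 2 read 100% in both InsR KO mice. Over all lower tiles the InsR KO mean lay between 40% and 60% at 681 (45.0%) and under 5% at 133 (8.80%).

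Changed tiles were counted in windows along the genome. Among 500 windows of 5 Mb with at least 100 tiles, the 25 with most lower tiles held 25.3% of the lower tiles and 8.47% of the tiles compared. The 25 windows with most higher tiles held 20.5% of the higher tiles and 12.3% of the tiles compared. The windows were ranked by these same tiles, so the larger shares follow in part from the ranking. Whether the tiles were spread more unevenly than by chance was not tested. The share of lower tiles reached 4.04% at 110 to 115 Mb of chromosome 1 and 3.44% at 15 to 20 Mb of chromosome 12, against a median of 0.331% over windows. The window that holds Insr itself, 0 to 5 Mb of chromosome 8, had 7 lower tiles of 274 (2.55%) and 3 higher (1.09%). The next window, 5 to 10 Mb, had 5 lower tiles of 248 (2.02%) and 0 higher. The share of higher tiles reached 5.13% at 130 to 135 Mb of chromosome 8, against a median of 0.432%. Further, 32.3% of the lower tiles of at least 75 points lay in the 25 windows with most lower tiles, which these tiles helped to choose. Whether DNA sequence differs between the InsR KO mice and the controls at these CpGs was not tested.

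Tiles chosen in 1 InsR KO mouse were read in the other, against controls injected at 3 weeks that had no part in the choice. Of the 2245 tiles higher in mouse A, the 2053 that could be read averaged 57.6% in mouse B and 36.5% in those controls, and 28.0% of them were at least 35 points higher, against 0.894% of all tiles. Of the tiles higher in mouse B, 19.5% were at least 35 points higher in mouse A, against 0.679%. For lower tiles the shares were 25.9% in mouse B, against 0.858%, and 31.5% in mouse A, against 1.051%. The direction was shared at 1623 of 2053 and 2155 of 2865 higher tiles and at 2048 of 3151 and 1803 of 2577 lower tiles. Both directions thus recurred in the second mouse at a part of the tiles, and most of the tiles fell short of 35 points there.

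The rule's limit separates like from like. The 123 higher tiles just inside it (35 to 36 points) averaged 70.7% in InsR KO and 35.2% in controls, and the 153 just outside (34 to 35 points) 67.7% and 33.2%. The lower tiles just inside averaged 47.6% against 83.1%, and the 119 just outside 46.6% against 81.1%. The groups overlapped at 81 tiles with a higher mean and 57 with a lower mean that otherwise met the limit.

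Much of the gain in InsR KO lay at tiles that lose methylation after birth in normal liver. Postnatal tiles were taken from WGBS alone, as those where newborn hepatocytes stood at least 35 points above adult WT hepatocytes, and 2901 of 311336 tiles with both values qualified (0.932%). Among the 1707 higher tiles with WGBS values, 715 were postnatal (41.9%, interval 39.6 to 44.2%), against 1.96% of tiles whose control mean left room for a rise of 35 points. A further 271 (15.9%) fell by 20 to 35 points from newborn to adult, and 702 (41.1%) moved by less than 20 points. Of the 1499 lower tiles 1407 (93.9%) moved by less than 20 points between newborn and adult, against 96.5% of tiles with a control mean of at least 35%.

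Across all 2901 postnatal tiles the InsR KO mice lay between the controls and the DKO mice. Mouse A averaged 37.1% and mouse B 47.0% (42.1 ± 6.96%, SD, n = 2), the controls 19.8%, 21.3% and 20.4% (20.5 ± 0.753%, n = 3) and the DKO mice 74.6% and 77.7% (76.2 ± 2.21%, n = 2). The groups did not overlap. InsR KO minus controls was 21.6 points, with p = 0.2 by a two-sided exact test over all permutations of the mice, the lowest value that 2 against 3 can reach. InsR KO minus DKO was -34.1 points (exact permutation test, p = 0.333, likewise the lowest for 2 against 2). Both InsR KO mice lay above all 3 controls at 1632 of the tiles (56.3%), against 10.3% of all tiles compared, and both lay below all 3 at 35 (1.21%), against 8.79%.

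The gain was graded rather than complete at single tiles. Of 2863 postnatal tiles with DKO values, 10.6% were below the controls in InsR KO, 22.7% were 0 to 10 points above, 17.8% were 10 to 20, 23.3% were 20 to 35, 16.1% were 35 to 50 and 9.50% were at least 50 points above. In DKO 65.1% were at least 50 points above. By limma, 168 of 2901 postnatal tiles (5.79%) were called higher in InsR KO, against 0.109% of all tiles. In DKO 1806 of 2900 (62.3%) were called higher, against 1.26%, and 841 of 2900 (29.0%) were called lower in InsR KO than in DKO, against 0.926%.

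Postnatal tiles with more methylation left to lose at 3 weeks showed more of the gain. Late tiles (1395) still stood at least 35 points above the adult WGBS level in 3 week old WT mice, and early tiles (1407) did not. At early tiles the 3 week old WT mice averaged 31.4% and 33.1%, above the controls, so part of the loss there also came after 3 weeks. At late tiles the InsR KO mice averaged 48.9% and 61.5%, the controls 26.7% to 28.6% and the DKO mice 81.3% and 84.2%, and the mean difference InsR KO minus controls was 27.6 points. At early tiles the InsR KO mice averaged 25.7% and 32.6%, the controls 12.9% to 14.2% and the DKO mice 68.0% and 71.2%, and the mean difference was 15.6 points. The difference of late minus early means was 26.05 ± 4.03 points in InsR KO (n = 2), 14.0 ± 0.306 points in controls (n = 3) and 13.1 ± 0.202 points in DKO (n = 2). It was thus 12.0 points larger in InsR KO than in the controls (exact permutation test, p = 0.2) and 12.9 points larger than in DKO (exact permutation test, p = 0.333), again the smallest values these numbers allow. By the rule 501 late tiles (35.9%) and 191 early tiles (13.6%) were higher in InsR KO.

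The same order appeared over finer steps of the 3 week level. Where 3 week old mice stood under 20% the InsR KO mice averaged 8.88% and 11.6%, the controls 1.60% to 2.42% and the DKO mice 60.03% and 64.2%. Where they stood at 60 to 80% the InsR KO mice averaged 47.2% and 59.2%, the controls 23.6% to 26.6% and the DKO mice 79.98% and 82.9%. The mean difference InsR KO minus controls was 8.26, 17.9, 22.3, 28.4 and 26.6 points over the 5 steps, and for DKO, which share those controls, it was 60.1, 62.1, 58.2, 56.6 and 46.6 points. In the steps from 40% upward both InsR KO mice lay below the 3 week level, and at all 5 steps both lay above every control.

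**Figure D3:**
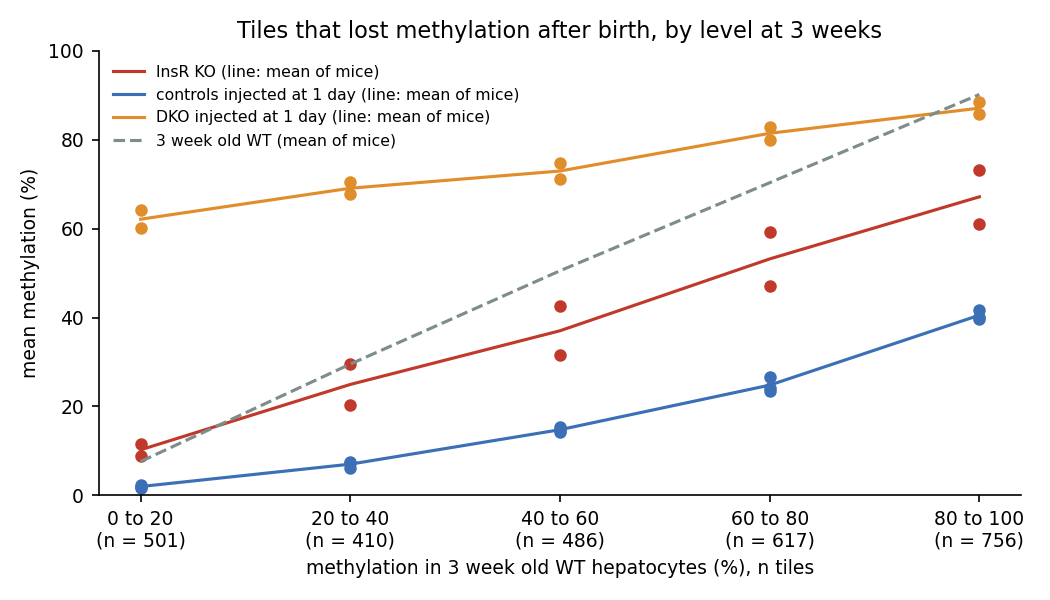
Mean methylation (%) at tiles that lose methylation after birth, grouped by their level in 3 week old WT hepatocytes, with 1 point for each mouse, lines through the group means and the 3 week level as a dashed line. The InsR KO mice lay between the controls and the DKO mice in each of the 5 groups, 8.26 points above the controls in the lowest and 26.6 points in the highest.

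DNA of other cells was looked for at 302 tiles that were under 10% in newborn and adult hepatocyte WGBS and over 80% in fat and neutrophils. These read 5.22% and 4.57% in InsR KO, 2.62% to 2.98% in the controls, and 16.0% and 14.3% in DKO, a difference InsR KO minus controls of 2.13 points (exact permutation test, p = 0.2). DKO mice injected at 3 weeks read 6.84% and 8.69%. Being raised in DKO, these tiles cannot tell DNA of other cells from methylation in the hepatocytes themselves. The median tile read 0% in both InsR KO mice and in all 3 controls. The part of the 2.13 points in the results was not tested, beside the 21.6 points at postnatal tiles. No tile was called in the genes of endothelial and stellate cells (16 genes, 0 of 163 tiles, which allows a share of up to 1.84%), leukocytes (11 genes, 0 of 58, up to 5.17%) or biliary cells (7 genes, 0 of 70, up to 4.29%). Over all protein-coding genes 0.538% of tiles were higher and 0.337% lower, so 0 among so few tiles does not set these genes apart.

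Higher and lower tiles lay in different chromatin. H3K4me1, a histone mark of enhancers, covered 58.2% of the higher tiles (interval 55.9 to 60.6%) and 8.40% of the lower tiles (7.10 to 9.91%), against 19.8% of all tiles compared. H3K27ac, a mark of active enhancers and promoters, covered 41.9% and 4.56%, against 21.2%, and 5hmC peaks covered 23.6% and 6.42%, against 4.51%. ATAC peaks of open chromatin held 2.46% of the higher and 0.463% of the lower tiles, against 5.58%. The peaks of both histone marks came from 15 week old WT mice, and the 5hmC peaks from mice 20 days old. The labels give no age for the ATAC libraries. Among tiles with a control mean of at most 65%, which could rise by 35 points, 39.8% lay in H3K4me1, 45.6% in H3K27ac, 4.43% in 5hmC and 12.7% in ATAC peaks. Against these the higher tiles had a larger share in H3K4me1 and 5hmC peaks and a smaller share in H3K27ac and ATAC peaks. Promoters held 7.78% of the higher and 5.69% of the lower tiles, against 21.5%, and gene bodies 57.8% and 42.3%, against 43.5%. Among tiles with a control mean of at least 35%, which could fall by as much, 5.46% lay in H3K4me1, 2.82% in H3K27ac, 4.94% in 5hmC and 0.1003% in ATAC peaks, 4.77% in promoters and 46.5% in gene bodies. The shares of the lower tiles in the 4 kinds of peak were above these and their share in gene bodies below.

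**Figure D4:**
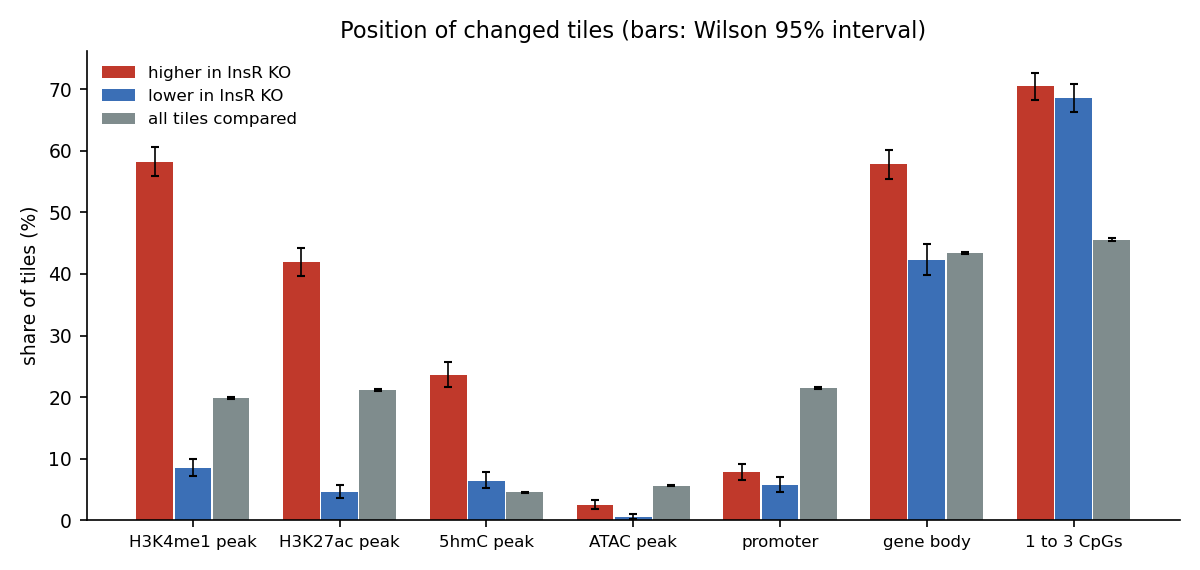
Share of tiles (%) that overlap peaks of WT hepatocytes or liver, promoters and gene bodies, or that hold 1 to 3 CpGs, for tiles higher (red) and lower (blue) in InsR KO and all tiles compared (grey), with Wilson 95% intervals for counting error. H3K4me1 peaks held 58.2% of the higher and 8.40% of the lower tiles.

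The share of higher tiles followed the mark also at like control levels. Among tiles with a control mean of 20 to 40%, 253 of 2689 in H3K4me1 peaks (9.41%, interval 8.36 to 10.6%) and 236 of 6438 outside them (3.67%, 3.23 to 4.15%) were higher. Without the postnatal tiles the shares were 5.78% of 2354 and 3.17% of 6252. Among postnatal tiles with a control mean of 5 to 20%, 281 of 719 (39.1%) were higher, against 214 of 13639 other tiles (1.57%).

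The higher tiles that were not postnatal had their own levels. These 992 tiles averaged 72.4% and 75.5% in InsR KO, 28.8% to 30.2% in the controls, 38.7% to 41.6% in the controls injected at 3 weeks, 64.2% and 65.7% in DKO, and 56.6% in newborn and 47.1% in adult WGBS. H3K4me1 peaks held 42.8% of them, against 79.9% of the 715 postnatal higher tiles. Of these tiles 325 of 896 (36.3%) were higher in DKO than in the controls injected at 3 weeks, and of the postnatal higher tiles 604 of 686 (88.0%), against 1.74% of all tiles.

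Some short sequence motifs were more frequent around the higher tiles. Each was searched on both strands in the 300 bp centred on a tile. The nuclear factor I letters TTGGCA were found at 22.6% of higher and 10.9% of lower tiles, against 12.1% of all tiles compared, and at 27.1% of the postnatal higher tiles and 29.5% of all postnatal tiles. The nuclear receptor letters AGGTCA were found at 23.2% and 16.9%, against 13.9%, and the HNF6 motif ATTGAT at 9.94% and 7.80%, against 5.24%. The forkhead letters TGTTTAC were found at 4.04% and 3.77%, against 2.80%, and the insulin response core CAAAACA, which reads in reverse with the same first 5 letters TGTTT, at 6.73% and 7.34%, against 5.78%. The GC-rich SP and KLF letters GGGCGG were found at 10.8% and 11.8%, against 26.8%. The sets were not matched for base composition. The median tile had 53% GC and 6 CpGs in the 300 bp among higher tiles, 54% and 7 among lower tiles, and 57% and 10 among all tiles. The part of base composition in these shares was not tested. A match is a description of the letters and not a bound site.

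Changed tiles were mostly isolated. Joined where at most 100 bp apart, the higher tiles formed 1456 regions, of which 1238 held 1 tile, and the lower tiles 1383 regions, of which 1281 held 1 tile. In or next to a protein-coding gene lay 919 higher and 620 lower regions. They touched 812 and 567 genes, of which 72 carried both, out of 16854 genes with a tile (4.82% and 3.36%).

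Among higher regions in coding genes the widest gap lay in a coding exon of Orm1, which encodes the acute-phase plasma protein orosomucoid. It read 87.5% and 100% in the InsR KO mice, 0% in each of the 3 controls and in each of the 3 controls injected at 3 weeks, 96.9% in the DKO mouse with a value, and 96.3% in newborn and 17.4% in adult WGBS. Both groups of controls were thus fully apart from the knockouts here. In Lima1, an actin-binding protein, a tile with 1 CpG read 91.7% and 84.6% in InsR KO, 0% in the controls and 100% and 88.9% in DKO. Newborn WGBS stood at 83.1% and adult WGBS at 67.5% there. Of the controls injected at 3 weeks, 1 read 0% and 1 read 26.9%. In Tcf7, a transcription factor of Wnt signalling, a tile with 1 CpG read 100% and 81.8% in InsR KO, 0%, 0% and 4.88% in the controls and 47.4% and 69.6% in DKO.

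In Echs1, an enoyl-CoA hydratase of mitochondrial fatty acid oxidation, an intronic tile read 85.7% and 77.8% in InsR KO, 3.57%, 0% and 9.86% in controls and 81.6% and 95.7% in DKO, but 23.1% to 50.0% in the controls injected at 3 weeks. In Gclc, the catalytic subunit of the first enzyme of glutathione synthesis, an intronic tile read 76.9% and 86.2% in InsR KO, 3.73% to 11.6% in controls, 12.5% to 18.5% in controls injected at 3 weeks, 84.6% and 88.2% in DKO and 89.7% in newborn WGBS. In Stxbp3a, a syntaxin-binding protein of vesicle fusion, 2 intronic tiles averaged 70.5% and 66.5% in InsR KO, 0.840% to 3.48% in controls and 72.9% and 86.5% in DKO. One control injected at 3 weeks stood at 67.8% there, within the range of the InsR KO mice. The remaining regions of this rank were in Zbtb48, Tead1, Tmem19, Btbd9, Rfx7 and Fasn, with InsR KO means of 71.4% to 100% and control means of 0% to 28.2%. In Tmem19 1 control injected at 3 weeks read 79.9%, between the InsR KO mice at 75.5% and 92.1%. Such controls read up to 66.7% in Btbd9, 61.9% in Rfx7 and 75.7% in Fasn, below both InsR KO mice. These values, and those of 67.8% in Stxbp3a and 79.9% in Tmem19, came from the same mouse, the only such control read at Rfx7. Controls injected at 3 weeks read at most 24.4% in Tead1 and 8.05% in Zbtb48. Over the 12 regions adult WGBS ranged from 1.39% in Tead1 to 69.3% in Rfx7, with 50.7% in Echs1 and 46.2% in Fasn.

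The most extended changes are apart from these. In a coding exon of Neu1, the lysosomal sialidase, 5 tiles with 26 CpGs averaged 74.3% and 71.9% in InsR KO, 7.21% to 11.7% in controls, 7.25% to 11.8% in controls injected at 3 weeks, 41.2% and 48.0% in DKO and 17.7% in newborn WGBS. Cultured hepatocytes read 20.9% and 14.0% at Neu1. At the shared promoter of B3galt4, a glycosyltransferase, and Rps18, a ribosomal protein, 6 tiles with 35 CpGs read 3.46% and 7.13% in InsR KO, 64.6% to 72.3% in controls and 71.9% and 73.7% in DKO. Newborn WGBS stood at 17.3% there, 3 week old mice at 38.7% and 54.7%, neutrophils at 0.347% and fat at 1.39%. Cultured hepatocytes read 5.6% and 23.7%, so 1 of these samples lay within the range of the InsR KO mice. A pair of neighbouring regions of 5 and 4 tiles lay outside coding genes. The first read 24.4% and 12.2% in InsR KO, 29.7% and 15.8% in DKO and 78.8% to 92.2% in controls. The second read 0.522% and 0% in InsR KO, 6.22% and 1.02% in DKO and 69.0% to 76.2% in controls. Controls injected at 3 weeks read 52.8% to 64.1% in the first and 34.5% to 48.8% in the second. DKO mice injected at 3 weeks read 21.3% and 21.4% in the first and 0.868% and 3.49% in the second. Cultured hepatocytes read 77.8% and 13.7% in the first and 50.3% and 8.23% in the second, so 1 sample without either deletion was low too.

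The widest lower gaps were tiles with 1 or 2 CpGs that read 0% in both InsR KO mice. They lay in Trak2, a kinesin adaptor, Cpne1 and Nfs1, of which the latter is the mitochondrial cysteine desulfurase, Cntn4, a neuronal adhesion protein, Zfp536, Grinl1a, Ndufaf1, an assembly factor of respiratory complex I, Steap3, an iron reductase, and Cxcr4, a chemokine receptor. Their control means were 92.1% to 100%. At the Trak2 tile every control of both injection times and both DKO mice read 100%, and the 3 week old mice read 82.1% and 100%.

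Tiles in genes of insulin signalling were higher at a larger share than over all genes, and none was called lower. Of 576 tiles in 30 genes of the list, 9 were higher (1.56%), in 5 genes, and 0 were lower (which allows up to 0.521%), against 0.538% and 0.337% of tiles over all protein-coding genes. The list was chosen with results of these data known, so this is a description. In Insr itself 10 tiles had values, with differences from -1.87 to 43.2 points, and 1 intronic tile was higher, at 86.7% and 93.7% in InsR KO, 41.3% to 53.5% in controls and 82.2% and 92.7% in DKO. Its neighbouring tile read 34.3% and 26.2% against 0% to 0.794%, and 47.7% and 62.7% in DKO. At Pik3r1, the regulatory subunit of phosphatidylinositol 3-kinase, 2 tiles near a start read 53.5% and 84.5% in InsR KO, 0% to 2.30% in controls and 23.3% and 69.5% in DKO. At Gsk3b, the kinase that inhibits glycogen synthase, 2 intronic tiles read 63.7% and 63.8% in InsR KO, 12.4% to 18.3% in controls and 80.8% and 85.6% in DKO, with 30.8% to 53.8% in controls injected at 3 weeks. Ptpn1, a phosphatase that acts on the receptor, held a promoter region (63.2% and 49.9% against 10.9% to 19.5%) and an intronic tile.

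Genes of lipid synthesis held changed tiles of both directions. Of 388 tiles in 24 genes 5 were higher (1.29%), in 5 genes, and 2 were lower (0.515%), against 0.538% and 0.337% over all genes. In a coding exon of Fasn, fatty acid synthase, the tile read 83.3% and 96.9% in InsR KO, 10.7% to 23.1% in controls and 80.5% and 95.2% in DKO. The controls injected at 3 weeks read 38.1% to 75.7% there, all below both InsR KO mice. In Acly, which makes cytosolic acetyl-CoA, the InsR KO mice read 90.9% and 72.0% and 1 control 64.7%, the other controls 21.2% and 19.6%. In Mlxipl, the glucose-sensing factor ChREBP, the InsR KO mice read 23.1% and 73.3% and the controls 0% to 5.48%. In Dgat2, which completes triglyceride synthesis, they read 41.7% and 57.9% against 2.78% to 21.2%, and DKO 81.2% and 94.3%. Lpin1, a phosphatidate phosphatase, held a higher tile and a lower promoter tile (47.2% and 30.2% against 75.6% to 91.7%), and Acacb, acetyl-CoA carboxylase 2, a lower promoter tile (52.0% and 15.8% against 66.0% to 81.5%).

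Other liver lists are set beside the 0.538% of tiles higher and 0.337% lower over all genes. In Lipc, hepatic lipase, an intronic tile read 68.8% and 60% in InsR KO, 19.6% to 33.8% in controls and 88.5% and 74.5% in DKO, but 46.4% to 92.6% in controls injected at 3 weeks. Glucose metabolism genes had 1 of 221 higher (0.452%), in Pcx, pyruvate carboxylase. Growth hormone and IGF genes had 3 of 405 higher (0.741%), in Igfals, the IGF-binding acid-labile subunit, and Igf2r, and 1 lower (0.247%), in Cux2, where the InsR KO mice read 47.4% and 60% against 80% to 96.3%. The imprinted genes list repeated the Igf2r region (2 of 245 higher, 0.816%) and had 1 lower tile (0.408%), in Gnas, which read 0% in both InsR KO mice, 36.7% to 52.7% in controls and 57.8% and 26.1% in DKO. Genes of sex-biased expression had 1 of 81 (1.23%), in C8b, and genes of DNA methylation 1 of 269 (0.372%), in Dnmt3a.

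Liver-enriched transcription factors had 6 of 405 tiles higher (1.48%), in 3 genes, and 1 lower (0.247%), against 0.538% and 0.337% over all genes. In Foxa3, a forkhead factor, 2 intronic tiles read 47.4% and 90.9% in InsR KO, 1.149% to 5.72% in controls and 66.1% and 66.5% in DKO. In Nr5a2, a nuclear receptor of bile acid metabolism, 2 intronic tiles read 45.5% and 54.0% against 4.84% to 8.33%, and 77.6% and 79.8% in DKO. In Rxra, the shared partner of many nuclear receptors, 2 tiles were higher. In Hnf4a, a central hepatocyte factor, the tile was lower, at 65.7% and 55.6% in InsR KO against 96.0% to 100%, and 97.3% and 100% in DKO.

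**Figure D5:**
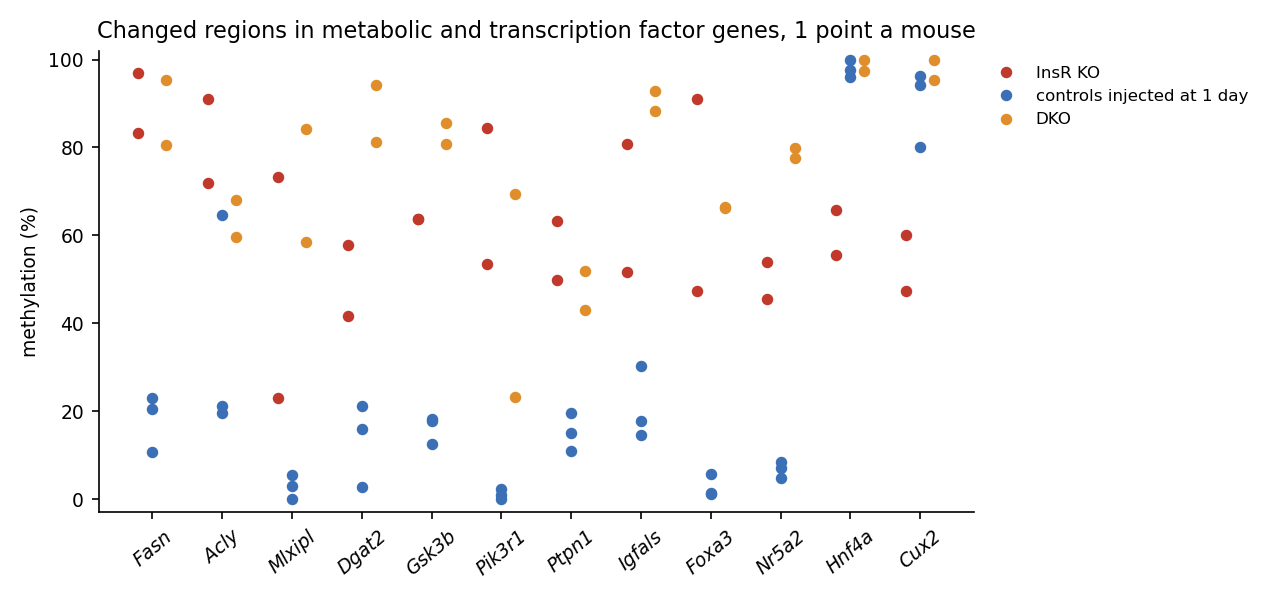
Methylation (%) in each mouse at changed regions in genes of lipid metabolism, insulin and growth hormone signalling and liver transcription factors, 1 point for each InsR KO (red), control (blue) and DKO (orange) mouse. The DKO mice stood with the InsR KO mice at higher regions such as Fasn, and with the controls at the lower regions of Hnf4a and Cux2.

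Expression could be given only for DKO, so it describes the same genes in hepatocytes with the other deletion. By limma on log2(FPKM + 1), 120 of 556 tested genes with a higher region were lower in DKO than in controls injected at 1 day (21.6%) and 21 were higher (3.78%), against 17.0% and 4.33% of all 10364 genes. The median log2 difference was -0.19 for these genes and -0.13 for all. Of 228 genes with a lower region, 43 were lower (18.9%) and 16 higher (7.02%). These counts depend on single libraries. Without control C or without DKO mouse A the genes with a higher region had 68 and 69 lower and 6 and 7 higher calls, against 6.33% and 6.98% lower over all genes, and without control A or DKO mouse C they had 13 and 9 higher. For genes with a lower region the lower calls were 27, 18, 23 and 27 without control A, control C, DKO mouse A or DKO mouse C, and the higher calls were 4 and 6 without control C or DKO mouse A.

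A few of the named genes passed that test. Tmem19 fell by 1.36 on the log2 scale (from 43.7 ± 4.08 to 16.4 ± 1.84 FPKM, n = 3 each, limma adjusted p = 0.000845), and Echs1 fell by 0.72 (97.4 ± 20.6 to 58.0 ± 6.42 FPKM, adjusted p = 0.00794). In the controls injected at 3 weeks Tmem19 stood at 39.0, 39.9 and 19.3 FPKM, the last in the mouse with 79.9% methylation there. The same mouse gave the high values of such controls at Stxbp3a, Btbd9, Rfx7 and Fasn. Its Cux2 stood at 5.56 FPKM, against 0.0064 and 0.0106 FPKM in the others. A link between methylation and expression at Tmem19 was not tested. In DKO Stxbp3a, Nr5a2, Hnf4a and Dnmt3a fell by 0.54, 0.72, 0.64 and 0.37. Orm1 stood at 804 ± 186 FPKM in controls and 444 ± 158 FPKM in DKO (adjusted p = 0.127) and Fasn at 81.1 ± 21.5 and 96.6 ± 29.95 FPKM (adjusted p = 0.633), and neither passed. Insr stood at 18.7 ± 2.38 FPKM in controls and 20.9 ± 4.31 FPKM in DKO (adjusted p = 0.625).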

How the data were processed

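Hepatocyte RRBS of 2 InsR KO mice, 3 controls and 2 DKO mice injected at 1 day was compared, together with the further samples named above. Per the study's methods reads were trimmed with Trim Galore 0.3.3, the submitters' notes name BSMAP 2.74, and the build is mm9. The authors deposited methylated fractions per 100 bp tile (RRBS) and 200 bp tile (WGBS) without coverage, so no interval can be given for a value. Those notes do not name BSMAP for the InsR KO libraries. The authors deposited expression as FPKM and peaks with a caller's score, which ranked the peaks in an alternative. Columns were tied to samples through animal numbers shared with the expression table, and 43 of 61 RRBS and 7 of 24 expression columns of other samples were not used.

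The members, lists and tests were chosen with earlier results of these data known. limma 3.58.1 (R 4.3.3, eBayes with trend, Benjamini-Hochberg) was fitted on fractions over all tiles with 1 mean per adult injected group, and a tile missing a further sample was fitted on those it had, as 15842 were. FPKM were tested as log2(FPKM + 1) at genes with a group mean of at least 1 FPKM, so that low genes have understated changes. Means over tiles per mouse were compared by exact permutation. Promoters ran from 1000 bp before to 100 bp after a start, and a peak counted from 1 bp of overlap (bedtools 2.31.1 and Python 3.11.15). Regions named were the 12 higher and 8 lower with the widest gap between groups in coding genes, the 4 with most tiles, every region in a listed gene (at most 3 a gene) and Insr. Mice are taken as separate samples by their labels. On simulated data with 400 of 50000 tiles shifted by 40 points, the rule recovered 307 with 75 others called and limma 195 with 3. The simulation drew every mouse with the spread of the controls injected at 1 day. The InsR KO mice differed more from each other, so the 75 and 3 do not measure false calls in the data. Some regions that meet this rule are not reported here.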

Additional observations from a re-analysis of the deposited data

How the results depend on the processing

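The differences at postnatal, late and early tiles and the difference between the last 2 kept their direction under every alternative run (falls of 25 or 50 points in WGBS, medians, a tissue rule, controls injected at 3 weeks, each mouse left out), and their exact p-values could not pass a threshold in any design. The counts of changed tiles moved with the rule. Higher and lower tiles numbered 3828 and 3588 at 25 points, 485 and 519 at 50 points, 4046 and 4338 where 1 InsR KO mouse and 2 controls sufficed, 504 and 474 at tiles of at least 4 CpGs (chosen after seeing the data, like the reading in the second mouse), and 340 and 849 by limma. Leaving out 1 mouse gave 1976 to 3101 higher tiles, the most without InsR KO mouse A, and 1636 to 3470 lower tiles, the most without mouse B and 2875 without mouse A.

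The limma calls in InsR KO were 620 higher without tiles at the extremes, 534 lower on the logit scale, and 1 and 5 with only the compared groups. They ranged from 143 to 767 higher and from 587 to 1520 lower with 1 mouse left out, with 143, 161 and 156 higher without control A, B or C, 767 higher without InsR KO mouse A, and 1301 and 1520 lower without mouse A or B. With only the compared groups DKO gave 1811 higher and 84 lower, and InsR KO against DKO 0 and 0 (11729 and 20300 at an unadjusted p under 0.05). With 1 mouse left out DKO gave 2843 to 3202 higher and 103 to 247 lower, the latter without DKO mouse A, and InsR KO against DKO 147 to 196 higher (each of the 4 mice moved it) and 2462 to 3675 lower. The cause was not tested, beyond the fewer samples in such fits. The median over the tiles read for other cells was 0 points.

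Of genes with a higher region, 6 to 19 were up and 68 to 108 down in DKO with 1 mouse left out, and of genes with a lower region 4 to 15 and 18 to 37. With protein-coding transcripts only, 3.92% of higher and 3.11% of lower tiles lay in promoters. At 50 points 62.1% of higher tiles lay in gene bodies, 53.6% in H3K27ac, 71.3% in H3K4me1 and 28.0% in 5hmC peaks. The higher-scoring 50% of the H3K27ac, H3K4me1 and 5hmC peaks covered 27.7%, 36.7% and 7.19% of higher and 2.84%, 4.17% and 2.71% of lower tiles, as fewer peaks must. In all 114 values stayed within their limits and 57 moved. No paired analysis was possible because the table columns carry animal numbers and not the replicate numbers of the labels. A count on autosomes alone was not run, since the table holds autosomes only. Depth is known only as the coverage minimum, so the error of a single tile cannot be given.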
